A study of Mus musculus with 9 samples.

Results

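The genes followed here are 10 that mark radial glia and astrocytes by their structure and support functions: Nes, Vim, Fabp7, Slc1a3, Slc1a2, Aldoc, Sparcl1, Clu, Apoe and Gja1. Each was read from probe sets whose only gene symbol was the listed one, and the probe set with the highest mean over all arrays stood for the gene. All 10 had such a probe set, out of 22180 genes with one. All 10 also passed the filter on dim genes, which left 13012 genes for testing. Vim alone had more than 1 such probe set.

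The study hybridised RNA from 3 primary cultures of the embryonic cortex of wild-type CD1 mice to 9 Affymetrix arrays, with 3 biological replicates for each culture. In the co-culture, precursors of embryonic day 13 were placed on neurons of embryonic day 16 that had already spent 4 days in culture, and both were kept together for 1 day. The neuron group held neurons of the same embryonic day 16 after 5 days without precursors, although another label names a shorter time. The precursor group held precursors of embryonic day 13 after 1 day without neurons. No transgene, deletion or added agent is named for any group, and the labels describe no sorting of the cells. The RNA of the co-culture therefore came from both cell populations at once, and in such bulk RNA fewer cells of a type and less RNA per cell cannot be told apart. Cell type, age of the embryo and time in culture all changed between the neuron and precursor groups and cannot be told apart.

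Radial glia are the elongated stem cells of the embryonic cortex; they give rise to neurons and, late in gestation and after birth, to astrocytes. Many genes that are later typical of astrocytes are already active in radial glia, among them those for the glutamate transporter GLAST, the lipid carrier brain fatty acid binding protein and the gap junction protein connexin 43. Intermediate filaments made of vimentin and nestin run along the radial process. Astrocytes take up glutamate from synapses, couple through gap junctions, and secrete lipoproteins and matrix proteins that act on neurons.

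For 6 of these genes a promoter window at the annotated gene start was available, and its 250 bases are printed first. The same 6 genes were lower in neurons than in precursors. Slc1a2, Sparcl1, Clu and Apoe had no such window, so none of these genes that were higher in neurons could be searched for comparison. The printed windows are RefSeq sequences on build GRCm38.p6, written 5′ to 3′ on the gene's strand, with matches to short promoter motifs in capitals.
Nes: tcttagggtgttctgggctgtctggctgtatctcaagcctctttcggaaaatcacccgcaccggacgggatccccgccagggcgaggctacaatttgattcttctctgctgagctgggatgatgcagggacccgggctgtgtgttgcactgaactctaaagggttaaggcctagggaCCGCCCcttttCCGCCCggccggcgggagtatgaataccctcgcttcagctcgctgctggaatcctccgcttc
Vim: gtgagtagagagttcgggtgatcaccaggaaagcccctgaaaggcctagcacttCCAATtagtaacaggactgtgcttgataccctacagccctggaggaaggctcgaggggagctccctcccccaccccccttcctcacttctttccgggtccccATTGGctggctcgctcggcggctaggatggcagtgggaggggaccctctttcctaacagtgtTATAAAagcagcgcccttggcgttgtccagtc
Fabp7: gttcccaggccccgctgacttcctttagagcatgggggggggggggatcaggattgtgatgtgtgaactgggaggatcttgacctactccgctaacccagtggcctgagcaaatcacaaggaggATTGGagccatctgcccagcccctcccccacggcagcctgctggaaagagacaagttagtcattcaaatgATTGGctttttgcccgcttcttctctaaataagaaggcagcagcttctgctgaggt
Slc1a3: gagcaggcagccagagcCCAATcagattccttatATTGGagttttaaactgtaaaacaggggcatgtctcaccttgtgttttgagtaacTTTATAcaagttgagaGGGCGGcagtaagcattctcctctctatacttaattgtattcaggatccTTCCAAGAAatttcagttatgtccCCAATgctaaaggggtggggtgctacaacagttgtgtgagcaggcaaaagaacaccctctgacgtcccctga
Aldoc: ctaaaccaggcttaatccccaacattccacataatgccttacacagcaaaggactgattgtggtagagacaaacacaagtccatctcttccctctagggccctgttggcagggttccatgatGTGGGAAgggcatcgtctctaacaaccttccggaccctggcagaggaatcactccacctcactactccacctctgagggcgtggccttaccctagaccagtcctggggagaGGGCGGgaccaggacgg
Gja1: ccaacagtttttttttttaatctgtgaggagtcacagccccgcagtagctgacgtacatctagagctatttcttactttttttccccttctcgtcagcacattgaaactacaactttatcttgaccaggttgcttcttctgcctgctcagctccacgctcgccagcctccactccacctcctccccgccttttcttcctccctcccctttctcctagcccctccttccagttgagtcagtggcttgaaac
The windows lie at chr3:87970843-87971092 on the plus strand for Nes, which encodes the intermediate filament protein nestin, and at chr2:13574061-13574310 on the plus strand for Vim, which encodes vimentin. That of Fabp7, for brain fatty acid binding protein, is chr10:57784673-57784922 on the plus strand. That of Slc1a3, for GLAST, is chr15:8710808-8711057 on the minus strand. That of Aldoc, for the glycolytic enzyme aldolase C, is chr11:78322823-78323072 on the plus strand. That of Gja1, for connexin 43, is chr10:56377050-56377299 on the plus strand. All of them are the bases just upstream of the annotated gene start.

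The motifs were searched as exact letters on both strands. The TATA box (TATAAA) occurred in the windows of Vim and Slc1a3. In Vim it lay 32 to 27 bases before the start, and in Slc1a3 it lay 161 to 156 bases before it on the opposite strand. The CCAAT box (CCAAT) occurred in 3 of the 6 windows, those of Vim, Fabp7 and Slc1a3. The GC box (GGGCGG) also occurred in 3 of the 6, those of Nes, Slc1a3 and Aldoc, and the 2 matches in Nes were 73 to 68 and 62 to 57 bases before the start. The RBPJ motif (GTGGGAA) occurred in Aldoc alone and the STAT motif (TTCNNNGAA) in Slc1a3 alone. The SOX motif (CATTGTT) and the NFI motif occurred in 0 of the 6. Gja1 held no match to any of these motifs. Among 32851 windows of this length in the same table, 12.4% held TATAAA, 33.8% CCAAT, 32.7% GGGCGG, 5.42% GTGGGAA, 7.02% TTCNNNGAA, 3.29% CATTGTT and 0.0365% the NFI motif. The motif did not overlap another in any of the 6 windows. These matches describe letters only.

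Levels are given as log2 values made by the authors with robust multi-array averaging (RMA), so that a difference of 1 is a 2-fold difference, and they compare arrays for 1 gene, not genes with each other. Array medians lay between 6.75 and 6.79. Arrays of the same group correlated at 0.988 to 0.994 over all probe sets, co-culture with precursors at 0.989 to 0.994, co-culture with neurons at 0.972 to 0.978, and neurons with precursors at 0.964 to 0.969. Neuron and cycling markers differed between the cultures, but neuron markers were not confined to neurons. Of 11 tested neuron markers, 10 were higher in neurons than in precursors and 0 lower. Tubb3 did not pass, with means of 11.95 in neurons and 11.96 in precursors. Dcx and Map2 averaged 12.15 and 12.05 in neurons, against 11.85 and 11.74 in precursors. These 3 genes lay far above the array medians in both cultures, so the precursor arrays also held RNA of neuron markers. All 7 tested cycling markers were lower in neurons. The mean log2 level of the cycling list was 7.52, 7.85 and 7.51 in neurons 1 to 3, against 10.12 to 10.20 in precursors.

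Neurons and precursors were compared to see which of these genes marked the precursor state. In neurons 6 of the 10 were lower, namely Nes, Aldoc, Gja1, Slc1a3, Fabp7 and Vim, and 3 were higher, namely Sparcl1, Clu and Slc1a2. Apoe did not pass the test. All calls are from limma with Benjamini-Hochberg adjustment over the 13012 genes and a threshold of 0.05. Over all genes tested, 35.2% were lower and 28% higher in neurons, so a call in either direction (63.1%) was common. The log2 differences of the 10 genes ran from -1.81 to 2.33 with a median of -0.77, against a median of -0.02 over all genes tested. The groups did not overlap for 9 of the 10, and for 66.4% of all genes tested.

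**Figure D1:**
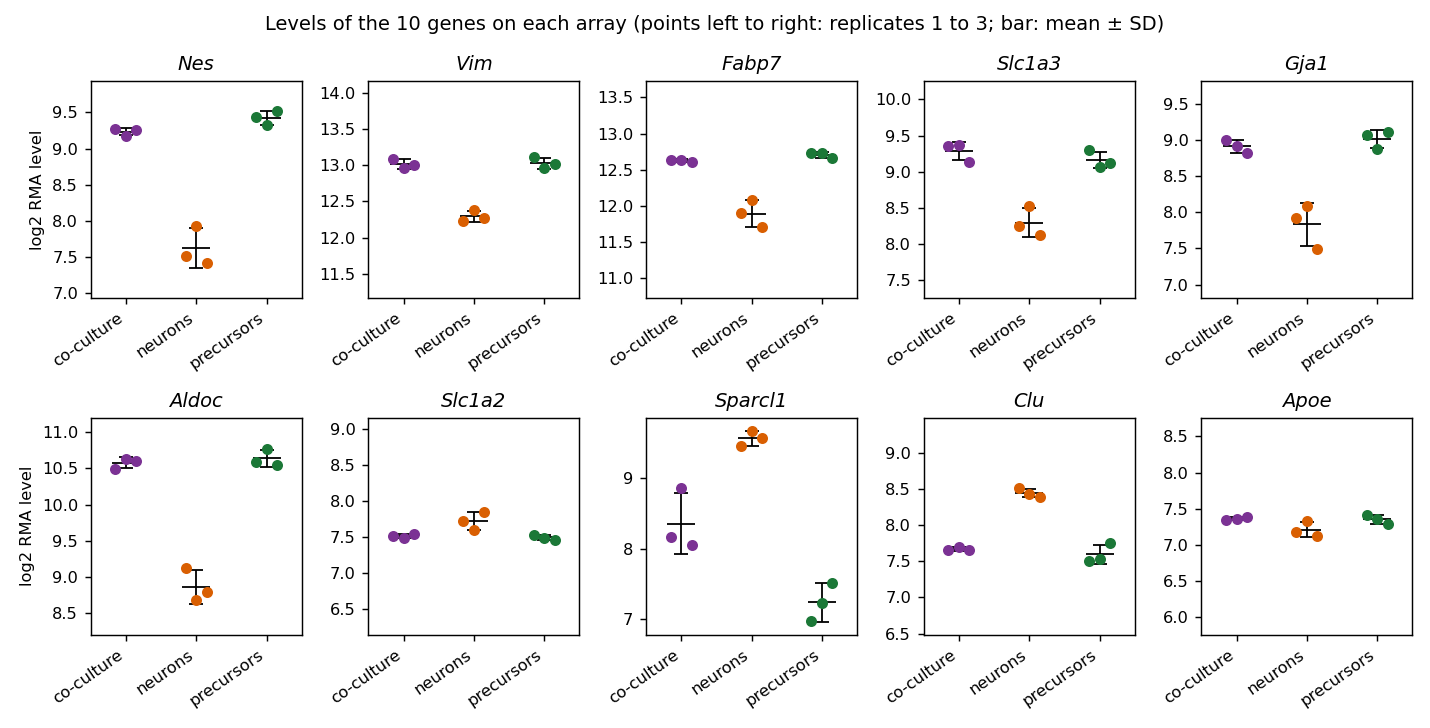
Log2 RMA levels (vertical axes) of the 10 genes on each of the 9 arrays, grouped as co-culture, neurons and precursors; points are replicates 1 to 3 and bars the mean ± SD. For Nes, Vim, Fabp7, Slc1a3, Gja1 and Aldoc every neuron array lies below every co-culture and precursor array, and for Sparcl1 and Clu every neuron array lies above them.

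The filament genes were both lower in neurons. Nes had levels of 7.51, 7.93 and 7.41 in neurons, against 9.44, 9.32 and 9.52 in precursors. Every neuron array was below every precursor array, and neuron replicate 2 was the highest of the neurons. Nes was 3.50-fold lower in neurons (log2 difference -1.81, SE 0.12, limma adjusted p = 6.43e-07). Vim had levels of 12.23, 12.38 and 12.28 in neurons, against 13.11, 12.96 and 13.02 in precursors. It remained among the bright probe sets in both cultures, and it was 1.66-fold lower in neurons (log2 difference -0.73, SE 0.06, limma adjusted p = 3.38e-06). The dimmer second probe set of Vim averaged 9.86 ± 0.25 in neurons and 11.02 ± 0.03 in precursors (SD, n = 3 each), a log2 difference of -1.15, so both probe sets were lower in neurons but by different amounts.

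Fabp7, whose protein carries fatty acids in radial glia, had levels of 11.90, 12.08 and 11.71 in neurons, against 12.73, 12.73 and 12.66 in precursors. The groups did not overlap, and Fabp7 was 1.76-fold lower in neurons (log2 difference -0.81, SE 0.08, limma adjusted p = 1.13e-05). Aldoc, which encodes the brain isoform of the glycolytic enzyme aldolase, had levels of 9.12, 8.67 and 8.79 in neurons, against 10.60, 10.77 and 10.55 in precursors. It had a gap close to that of Nes, being 3.44-fold lower in neurons (log2 difference -1.78, SE 0.11, limma adjusted p = 3.75e-07). Unlike for Nes, neuron replicate 1 and not replicate 2 was the highest of the neuron arrays. Gja1, the main gap junction gene of radial glia and astrocytes, had levels of 7.92, 8.08 and 7.49 in neurons, against 9.07, 8.88 and 9.10 in precursors. The neuron arrays spread more widely (SD 0.30) than the precursor arrays (SD 0.12) and stayed below them. Gja1 was 2.27-fold lower in neurons (log2 difference -1.18, SE 0.13, limma adjusted p = 3.02e-05).

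The main astroglial glutamate transporters went in opposite directions. Slc1a3, which encodes GLAST, the transporter already present in radial glia, had levels of 8.24, 8.52 and 8.12 in neurons, against 9.29, 9.07 and 9.12 in precursors. It was 1.82-fold lower in neurons, with no overlap (log2 difference -0.87, SE 0.11, limma adjusted p = 5.96e-05). Slc1a2, which encodes GLT-1, the transporter that predominates in the mature forebrain, had levels of 7.72, 7.59 and 7.84 in neurons, against 7.54, 7.49 and 7.46 in precursors. The neuron arrays were all above the precursor arrays, but the nearest pair lay close together. Slc1a2 was higher in neurons by 1.17-fold (log2 difference 0.22, SE 0.06, limma adjusted p = 0.0103).

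Among the genes for secreted proteins, Sparcl1 and Clu were higher in neurons. Sparcl1 encodes hevin, a matrix protein that promotes the formation of excitatory synapses. Its levels were 9.46, 9.67 and 9.57 in neurons, against 6.97, 7.24 and 7.51 in precursors. This was the largest difference among the 10 genes, a 5.02-fold higher level in neurons (log2 difference 2.33, SE 0.20, limma adjusted p = 4.76e-06). Clu, which encodes the extracellular chaperone and lipoprotein component clusterin, had levels of 8.51, 8.43 and 8.39 in neurons, against 7.50, 7.53 and 7.75 in precursors. The groups did not overlap, and Clu was higher in neurons by 1.80-fold (log2 difference 0.85, SE 0.07, limma adjusted p = 2.50e-06). Apoe, which encodes the main apolipoprotein of the brain, had levels of 7.18, 7.33 and 7.12 in neurons, against 7.41, 7.36 and 7.29 in precursors. Its groups overlapped, since neuron replicate 2 lay above precursor replicate 3. The log2 difference of -0.14 had an interval of -0.28 to -0.01 and did not pass after adjustment (limma adjusted p = 0.0631). Without neuron replicate 2 it was -0.20 and passed (limma adjusted p = 0.0065).

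Neuron replicate 2 was the highest neuron array for Nes, Vim, Fabp7, Slc1a3, Gja1, Sparcl1 and Apoe. It was also highest for the cycling list, as given above, and for 26 other radial glia genes, whose mean log2 level was 8.57, 8.65 and 8.52 in neurons 1 to 3, against 8.98 to 9.07 in precursors. The part of this array in the neuron levels was tested only by leaving it out, and apart from Apoe no call of the 10 genes between neurons and precursors changed without it.

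Family relatives showed whether the direction of a gene was shared by its family. The family counts here and below stand beside 35.2% lower and 28% higher in neurons over all genes tested, with no test of a family. In the Slc1 transporter family, all 7 genes were tested, and 3 were higher and 2 lower in neurons. Slc1a1, which encodes the neuronal glutamate transporter EAAC1, averaged 10.48 ± 0.05 in neurons and 8.37 ± 0.03 in precursors (SD, n = 3 each) and was 4.33-fold higher in neurons (limma adjusted p = 8.95e-10). Slc1a5, a neutral amino acid transporter, was 2.59-fold lower in neurons (log2 difference -1.37, limma adjusted p = 6.83e-05). Slc1a4, another neutral amino acid transporter, was higher by 0.17 (limma adjusted p = 0.00289). Slc1a6 and Slc1a7, further glutamate transporters, did not pass, with log2 differences of 0.14 and 0.10. Thus Slc1a2 and Slc1a3 were neither the highest nor the lowest of the family in this comparison.

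The SPARC family held the largest differences of the 5 families plotted. Of 7 tested genes, Sparcl1 included, 4 were higher and 2 lower in neurons, and the median log2 difference was 1.30 against -0.02 over all genes. Spock3, Spock1 and Spock2, which encode the testicans, proteoglycans of the brain matrix, were higher by 2.42, 2.36 and 1.30 on the log2 scale (limma adjusted p = 2.21e-09, 7.39e-09 and 1.54e-07). Sparc itself, the founding member, which is known to oppose hevin at synapses, did not pass at -0.21 (limma adjusted p = 0.0875). Smoc1 and Fstl1, a matrix protein and a follistatin-like secreted protein, were lower by log2 differences of -0.20 and -0.27 (limma adjusted p = 0.0244 and 0.035). The count of 2 lower genes fell to 0 or 1 without neuron replicate 1 or 3 or any 1 precursor array. It was 0 with cyclic loess normalization. With no filter, with a filter at the 75th percentile or with arrays centred on the tested genes, it was 1. Smoc2 lay below the filter.

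Among 10 tested genes for intermediate filaments, lamins and their linker plectin, 5 were higher and 4 lower in neurons. Those lower were Nes, Vim, the nuclear lamin gene Lmnb1 (log2 difference -1.52, limma adjusted p = 5.52e-08) and Plec (-0.32, 3.49e-04). Those higher included the neurofilament gene Nefl, at 1.6 (limma adjusted p = 5.77e-09), Synm, which encodes the synemin partner of vimentin and desmin (0.64, 3.02e-04), Ina and Nefh (0.40 and 0.31). Lmna was higher by 0.15, and Lmnb2 did not pass at -0.21. Nefm, Prph, Des and Gfap, the astrocyte filament gene, lay below the filter. In the fatty acid and retinoid binding family, 4 of 5 tested genes were lower and 1 was higher in neurons. Crabp2, a retinoic acid carrier, was lower by a log2 difference of -1.04 (limma adjusted p = 9.89e-05), and Crabp1 and Fabp5 had differences of -0.36 and -0.18. Fabp3 was higher by 0.22 (limma adjusted p = 0.0143). Without neuron replicate 1 or precursor replicate 3, 2 genes of this family were lower in place of 4. Another 7 genes of this family, Fabp1, Fabp2, Fabp4, Fabp6, Fabp9, Fabp12 and Pmp2, were below the filter. Aldoc was the only aldolase gene with a probe set that names 1 gene.

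**Figure D2:**
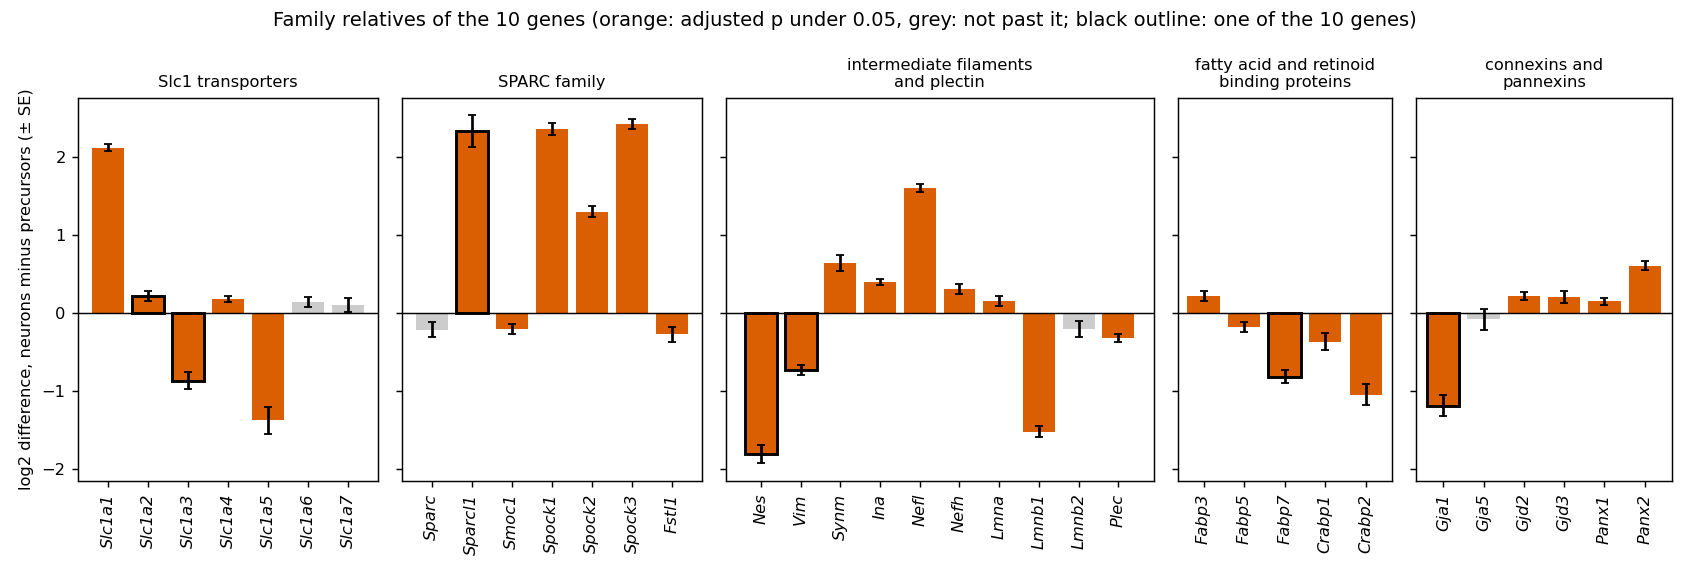
Log2 differences, neurons minus precursors (vertical axis, bars ± SE), of the tested genes in 5 families; orange bars passed the threshold, grey bars did not, and black outlines mark the genes Nes, Vim, Fabp7, Slc1a3, Slc1a2, Sparcl1 and Gja1. In each family the bars that passed point both ways, and among the binding proteins Fabp3 is the 1 gene above 0.

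Connexin and pannexin genes were mostly dim. Of 16 with a named probe set, 6 were tested, of which 4 were higher in neurons and Gja1 alone was lower. The 4 higher were Panx2 (log2 difference 0.61, limma adjusted p = 1.26e-05), Gjd2, a connexin gene of neurons (0.22, 0.00742), Gjd3 (0.21, 0.0329) and Panx1 (0.15, 0.0179). Without neuron replicate 1 or precursor replicate 2, 2 were higher in place of 4. Gja5 did not pass at -0.08. Gjb6, which encodes another astrocyte connexin, averaged 5.50 in the co-culture, 5.56 in neurons and 5.38 in precursors and was not tested. The other 9 below the filter were Gja3, Gja4, Gjb1, Gjb2, Gjb5, Gjc1, Gjc3, Gjd4 and Panx3. Of these, Gjc1 averaged 6.04 in neurons and 6.57 in precursors, without overlap of the arrays. With no filter, 2 genes of this family were lower in neurons in place of 1, so Gja1 was alone only among the genes tested here.

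Around Apoe and Clu, 19 of 22 genes for apolipoproteins, their receptors and lipid transfer were tested, both included, with 9 higher and 6 lower in neurons and a median log2 difference of -0.07. Lrp4, a low-density lipoprotein receptor relative that acts in agrin and Wnt signals, was 3.64-fold lower in neurons (limma adjusted p = 2.22e-09), and Lrp5, a Wnt co-receptor, had a difference of -0.90 (limma adjusted p = 5.89e-07). Abcg4, a sterol exporter of neurons, was higher by 1.22 (limma adjusted p = 6.82e-08) and Lrp2, the endocytic receptor megalin, by 0.87 (limma adjusted p = 8.94e-05). Abca1, which loads lipid onto apolipoprotein E, had a difference of -0.33 (limma adjusted p = 0.0412). The receptor gene Lrp1, which takes up apolipoprotein E, was higher by 0.60 (limma adjusted p = 1.17e-06). Lrp8 and Vldlr, for the reelin receptors, had differences of 0.13 (limma adjusted p = 0.0192) and -0.07 (limma adjusted p = 0.341). Scarb1, Pltp and Lpl were higher by 0.46, 0.64 and 0.63, and Sorl1 by 0.25. Lrp6, Lrp10 and Abcg1 were lower, with differences of -0.32, -0.32 and -0.27. Lcat and Trem2 did not pass at -0.08 and -0.10, and Apod, Abca7 and Nr1h3 were below the filter.

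Another 2 lists, without any of the 10 genes, showed how other genes of the same cells behaved. Of 22 tested radial glia genes, 15 were lower and 2 higher in neurons, with a median log2 difference of -0.37. The largest were Prom1, the stem cell surface protein prominin 1, at -1.61 (limma adjusted p = 2.66e-06), Itga6, a laminin receptor subunit, at -1.42 (limma adjusted p = 5.41e-06), Lrig1, a brake on growth factor receptors, at -1.28 (limma adjusted p = 6.37e-06), and Psat1, an enzyme of serine synthesis, at -1.19 (limma adjusted p = 2.20e-07). Gpm6b, a membrane proteolipid, and Ncan, a matrix proteoglycan, were the 2 that were higher, by 0.36 and 0.31. Against the background of 35.2% of all genes lower in neurons, 15 of 22 stands as a description, with no test of the list.

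The 29 tested genes of the astrocyte list were divided, with 12 lower and 10 higher in neurons and a median of -0.11. Over all genes tested 35.2% were lower and 28% higher, so such a split is common. Sox9, a transcription factor of neural stem cells and astrocytes, was 3.62-fold lower in neurons (limma adjusted p = 3.62e-08), and Fgfr3, a fibroblast growth factor receptor, had a difference of -1.06 (limma adjusted p = 3.54e-04). Atp1b2, a sodium pump subunit also called the adhesion molecule on glia, and Slc6a11, a GABA transporter, were higher by 1.49 and 1.43 (limma adjusted p = 3.83e-09 and 2.64e-07). Nfia, a transcription factor that starts astrocyte formation, had a difference of -0.98. The probe set of Gfap averaged 6.59 in the co-culture, 6.74 in neurons and 6.69 in precursors, and that of Aqp4, the astrocyte water channel, 5.96, 6.03 and 5.98 in the same order. Both were below the array medians in too many arrays to be tested, as were S100b, Gjb6, Id3, Pla2g7, Itih3, Aldh1a1 and Gpr37l1. Other astrocyte markers did pass the filter. Hepacam, an adhesion protein of astrocytes, Slc4a4, a bicarbonate transporter, and Aldh1l1, a folate enzyme, were higher in neurons by 0.90, 0.49 and 0.33 (limma adjusted p = 9.64e-04, 1.14e-04 and 0.0138). Mlc1, an astrocyte membrane protein, and Glul, which encodes glutamine synthetase, were lower, with differences of -0.22 and -0.21 (limma adjusted p = 0.0394 and 0.014). Kcnj10, an astrocyte potassium channel gene, did not pass at 0.16 (limma adjusted p = 0.111).

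The co-culture shows the levels after precursors had spent 1 day with neurons, and it was compared with precursors alone first. Sparcl1 alone of the 10 genes passed, as higher, and 0 were lower, against 8.22% higher, 0.2% lower and 8.42% in either direction over all genes tested. None of the other 9 had an unadjusted p under 0.05. The differences of the 10 genes had a median of -0.0015, against 0.02 over all genes. The groups did not overlap for 3 of the 10, against 24.8% of all genes tested.

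Sparcl1 had levels of 8.16, 8.86 and 8.05 in the co-culture, against 6.97, 7.24 and 7.51 in precursors. Every co-culture array was above every precursor array, and co-culture replicate 2 stood above the other co-culture arrays. Sparcl1 was 2.17-fold higher in the co-culture (log2 difference 1.12, SE 0.20, limma adjusted p = 0.00708), and with the replicate number as a block the adjusted p was 0.00598. Without co-culture replicate 2 the log2 difference was 0.87 (limma adjusted p = 0.00831). Neurons alone had more Sparcl1 RNA than precursors, as given above, so a change within a cell type and the presence of neurons cannot be told apart in this comparison.

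Co-culture replicate 2 also had the highest mean level of the mural and fibroblast list, though not of every gene in it. The mean log2 level of the 12 listed genes was 7.35, 7.63 and 7.22 in co-cultures 1 to 3, against 7.11 to 7.29 in precursors. Dcn, which encodes the fibroblast proteoglycan decorin, had levels of 6.97, 8.25 and 6.42 in the co-culture, against 6.20, 6.75 and 6.75 in precursors. Lum, which encodes lumican, had 6.43, 7.47 and 5.50 in the co-culture, against 5.50, 5.92 and 6.11 in precursors. Col1a1, Col1a2, Col3a1, Pdgfrb, Acta2 and Tagln were likewise highest in replicate 2 among the co-cultures. By contrast, Rgs5 (6.81, 6.77 and 6.91), Kcnj8 (6.31, 6.28 and 6.43) and Cspg4 (7.27, 7.22 and 7.31) were lowest there. Abcc9 was highest in replicate 3. Lum, Kcnj8 and Abcc9 lay below the filter and were not tested. Of the 9 markers of this list that were tested, 0 passed in limma between co-culture and precursors, and 3 had an unadjusted p under 0.05. The endothelial list averaged 6.77, 6.93 and 6.75 in co-cultures 1 to 3, against 6.78 to 6.82 in precursors. The part of such cells in the Sparcl1 level was not tested.

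The other 9 genes did not pass between co-culture and precursors, and their intervals bound the difference. Nes had levels of 9.27, 9.18 and 9.26 in the co-culture, against 9.44, 9.32 and 9.52 in precursors. All co-culture arrays lay below the precursor arrays, yet the log2 difference of -0.19 did not pass, with an interval of -0.46 to 0.07 (limma adjusted p = 0.494). Fabp7 had 12.64, 12.63 and 12.60 in the co-culture, against 12.73, 12.73 and 12.66 in precursors, again without overlap. Its difference was -0.08 with an interval of -0.26 to 0.10. Vim had 13.09, 12.96 and 12.998 in the co-culture, against 13.11, 12.96 and 13.02 in precursors. These arrays were interleaved, and the difference of -0.01 had an interval of -0.15 to 0.12.

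Slc1a3 had levels of 9.35, 9.37 and 9.14 in the co-culture, against 9.29, 9.07 and 9.12 in precursors. It had the highest positive difference after Sparcl1, at 0.13, and its interval of -0.12 to 0.37 spanned 0. Gja1 had 9.003, 8.92 and 8.82 in the co-culture, against 9.07, 8.88 and 9.10 in precursors, with a difference of -0.10 and an interval of -0.40 to 0.20. Aldoc had 10.49, 10.64 and 10.60 in the co-culture, against 10.60, 10.77 and 10.55 in precursors. Those groups overlapped, and the difference of -0.06 had an interval of -0.31 to 0.18. For Slc1a2 the co-culture arrays gave 7.51, 7.49 and 7.55, against 7.54, 7.49 and 7.46 in precursors, and the difference of 0.02 had an interval of -0.12 to 0.16. Clu had 7.66, 7.70 and 7.65 in the co-culture, against 7.50, 7.53 and 7.75 in precursors. Its difference of 0.07 had an interval of -0.08 to 0.22, although Clu was higher in neurons alone. Apoe had 7.34, 7.36 and 7.39 in the co-culture, against 7.41, 7.36 and 7.29 in precursors, with a difference of 0.01 and an interval of -0.13 to 0.14. A 1.5-fold change in the whole RNA lies outside the interval of each of these 9 genes, whereas a change in 1 of the mixed cell types alone would be diluted by the other.

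**Figure D3:**
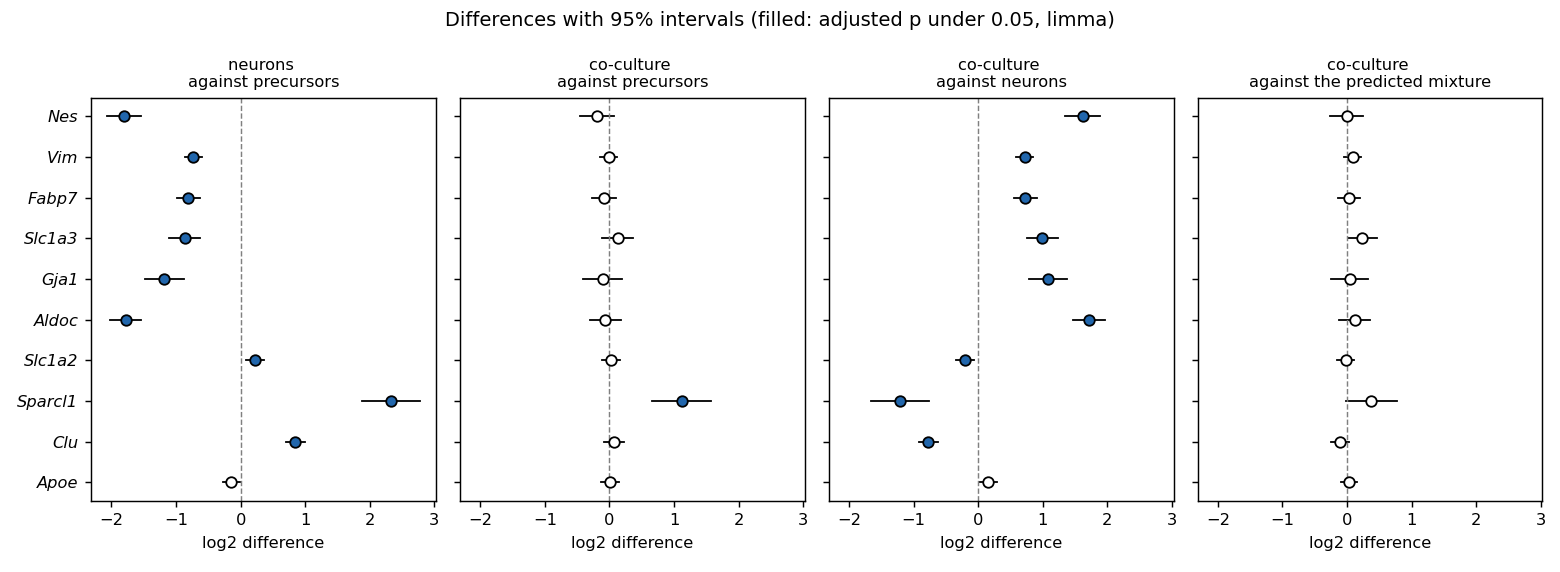
Log2 differences (horizontal axes) of the 10 genes in 4 comparisons, with 95% intervals; filled points passed an adjusted p of 0.05 in limma. Sparcl1 is the 1 filled point for co-culture against precursors, and no point is filled against the predicted mixture.

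Against neurons, the co-culture showed the reverse of the first comparison. Of the 10 genes, 6 were higher in the co-culture, 3 were lower and Apoe did not pass, against 35.7% higher, 24.9% lower and 60.6% in either direction over all genes tested. Precursors and neurons each serve in 2 of these comparisons, so the comparisons share their arrays. The genes higher in the co-culture were Aldoc (3.29-fold), Nes (3.06-fold), Gja1 (2.12-fold), Slc1a3 (1.99-fold), Fabp7 (1.66-fold) and Vim (1.65-fold), with limma adjusted p from 8.21e-07 for Aldoc to 7.22e-05 for Gja1. Sparcl1 was 2.31-fold lower (log2 difference -1.21, limma adjusted p = 5.46e-04) and Clu 1.71-fold lower (-0.77, limma adjusted p = 6.78e-06). Slc1a2 was 1.15-fold lower (-0.20, limma adjusted p = 0.0169), and this call was lost without neuron replicate 3 (limma adjusted p = 0.0521) or without co-culture replicate 2 (limma adjusted p = 0.0558). Apoe was at 0.15 with a limma adjusted p of 0.0514, and it passed without neuron replicate 2 (0.21, limma adjusted p = 0.0055). For all 10 genes the co-culture and neuron arrays did not overlap, as for 65.4% of all genes.

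Finally the co-culture was compared with a mixture of the separate cultures. The share of RNA from the neuron culture, called the neuron share, was estimated for each co-culture array. It rests on 213 genes at least 4-fold apart between neurons and precursors, none of them among the 10 genes. This share averaged 16.8% ± 1.07 (SD, n = 3). Precursors alone also had neuron marker RNA, so it is not a share of all neuronal RNA. The 104 genes higher in neurons gave 22.7% ± 1.17 and the 109 genes higher in precursors 10.9% ± 2.21, so the estimate depends on the genes used. At this share 0 of the 10 genes differed from the mixture by limma after adjustment, and 1, Slc1a3, had an unadjusted p under 0.05. Over all genes tested 0.361% were higher and 0.0307% lower than the mixture, 0.392% in all. The co-culture level of Slc1a3 was 9.29 ± 0.13 (SD, n = 3) against 9.05 predicted, a log2 difference of 0.24 with an interval of 0.01 to 0.47. Its limma adjusted p was 0.579. Sparcl1 was at 8.36 ± 0.44 (SD, n = 3) against 7.98 predicted, a difference of 0.38 with an interval of -0.02 to 0.77. Its limma adjusted p was 0.632. Without co-culture replicate 2 this difference was 0.14 (limma adjusted p = 0.998), and with a neuron share lower by 0.1 it was 0.77 and passed (limma adjusted p = 0.0461). Clu was the lowest, at -0.11 with an interval of -0.24 to 0.03.

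For the genes at least 2-fold apart between the separate cultures, the same quantity can be read for 1 gene, as the linear co-culture level's position between precursors (0%) and neurons (100%). Nes lay at 14.2%, 22.2% and 15.5% in co-cultures 1 to 3, with a mean of 17.3% ± 4.30. Gja1 lay at 1.49%, 11.6% and 23.1%, with a mean of 12.1% ± 10.8, and Aldoc at 13.8%, 0.396% and 3.90%, with a mean of 6.03% ± 6.95. Sparcl1 lay at 22.3%, 51.6% and 18.8%, with a mean of 30.9% ± 18.0 (SD, n = 3 for each gene). Replicate 2 set the upper value for Sparcl1. The shares given above were 16.8% from all 213 genes, 22.7% from the 104 genes higher in neurons and 10.9% from the 109 genes higher in precursors. The cause of the Sparcl1 position was not tested.

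The wider lists behaved in the co-culture as follows, beside 8.22% higher and 0.2% lower than in precursors over all genes tested. Of the 22 other radial glia genes, 0 passed in either direction between co-culture and precursors by limma, and 1 had an unadjusted p under 0.05. Of the 29 other astrocyte genes, 4 were higher and 0 lower: Slc6a11 (log2 difference 0.54, limma adjusted p = 0.0027), Atp1b2 (0.41, 3.04e-04), Cpe, a prohormone processing enzyme (0.25, 0.00824), and Acsl6, a fatty acid activating enzyme (0.18, 0.0418). All of these 4 were also higher in neurons than in precursors. In the SPARC family 4 of 7 were higher, Spock3 by 1.17, Spock1 by 0.97 and Spock2 by 0.55 beside Sparcl1, and Spock3 was also above the predicted mixture by 0.38 (limma adjusted p = 0.0322). Slc1a1 (0.74), Nefl (0.65), Lpl, which encodes lipoprotein lipase (0.47), Abcg4 (0.32), Sorl1 (0.32) and Lrp1 (0.22) were the other called family relatives, all higher in the co-culture. Without co-culture replicate 2, 2 and not 4 genes of the apolipoprotein list were higher. Lpl was above the mixture as well, by 0.35 (limma adjusted p = 0.0417). Neither mixture call held without neuron replicate 1 or 2, precursor replicate 2 or any 1 co-culture array, and that of Lpl was also lost without neuron replicate 3 or precursor replicate 3. The call of Lpl was lost as well under the replicate block, where 0 genes of the apolipoprotein list were above the mixture. Both calls were lost with no filter, with a neuron share higher by 0.1, with a share specific to direction and with arrays centred on the tested genes, and Lpl was not called either with the 75th percentile filter, the mean of probe sets or an intensity trend. These lists were measured in the same mixed RNA, with 7 of 11 neuron markers higher and 0 lower than in precursors.

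**Figure D4:**
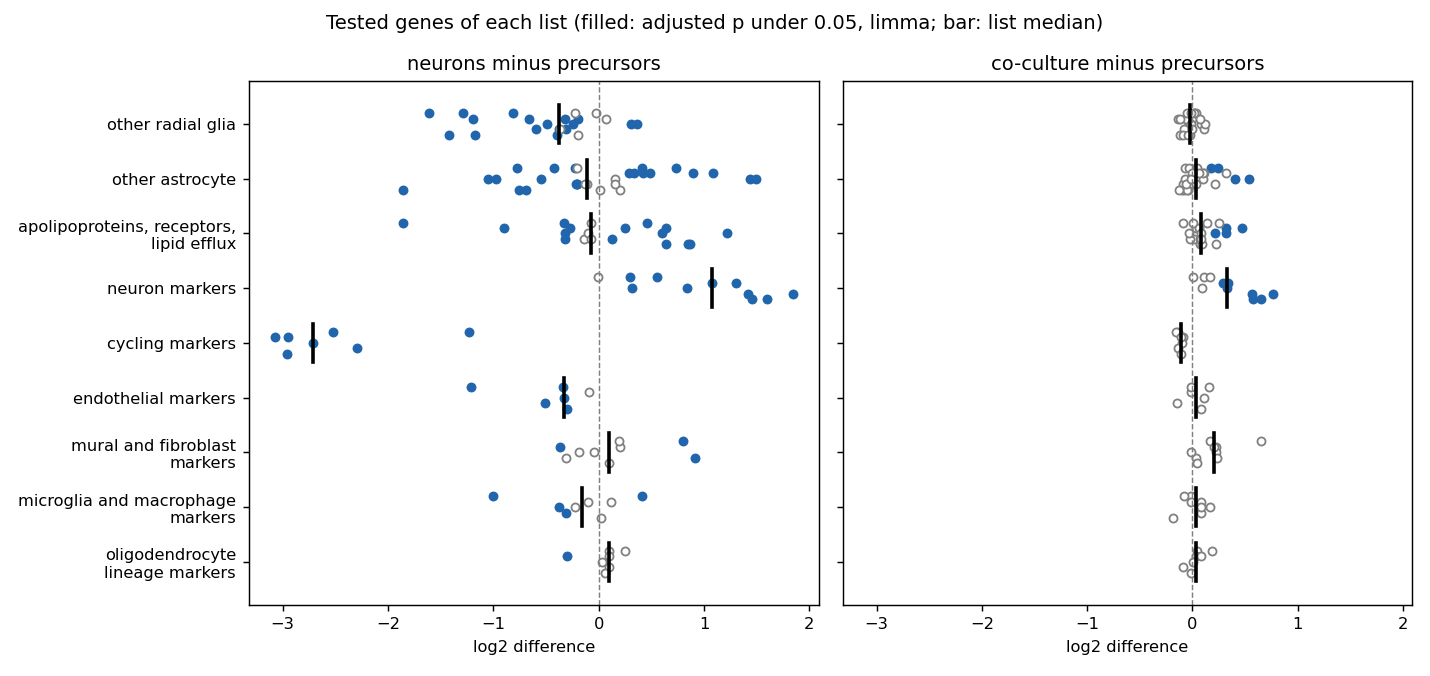
Log2 differences (horizontal axes) of each tested gene in 9 lists, for neurons minus precursors and for co-culture minus precursors; filled points passed an adjusted p of 0.05 in limma and bars are list medians. Cycling markers lie far below 0 in neurons, whereas in the co-culture they and the radial glia list stay near 0 and the filled points are higher ones.

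Markers of other cell types also differed between neurons and precursors, where 35.2% of all genes tested were lower and 28% higher in neurons. Between neurons and precursors, 5 of 6 tested endothelial markers were lower in neurons, Cdh5, which encodes VE-cadherin, by a log2 difference of -1.21 (limma adjusted p = 1.75e-05), and 3 of them were lower without neuron replicate 1 or 2 or precursor replicate 3. Microglia and macrophage markers were divided, with 3 lower, among them Fcer1g at -1.01, and 1 higher of 8 tested, and 0 were higher without any 1 neuron array. Of 9 mural and fibroblast markers, Tagln and Acta2, for smooth muscle contractile proteins, were higher by 0.92 and 0.80 in neurons, and Pdgfrb was lower (2 were lower without neuron replicate 3 or precursor replicate 1). Of 7 oligodendrocyte lineage markers, Olig2 alone passed, at -0.30, and 0 were lower without neuron replicate 1 or 3 or precursor replicate 1 or 3. List means for endothelial markers were 6.33 to 6.49 in neurons, against 6.78 to 6.82 in precursors, and for microglia markers 6.64 to 6.76 in neurons, against 6.81 to 6.96 in precursors. The part of these cells in the levels of Apoe, Clu, Vim and Sparcl1, which such cells can also express, was not tested.

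Across the 9 arrays, each gene was also paired with the tested gene most correlated with it, as a description over arrays that share the 3-group structure. For Nes this was Anp32b (Pearson r 0.999), for Vim Slc25a24 (0.999), for Fabp7 Zwilch (0.998), for Gja1 Mtmr10 (0.996), for Aldoc Rps4x (0.996) and for Slc1a3 Zfp568 (0.995). For Sparcl1 it was Gphn (0.994), for Clu Pcyt1b (0.994), for Slc1a2 Rtbdn (0.985) and for Apoe Rad52 (0.976). These values include the differences between the cultures, and correlation within a culture was not tested.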

How the data were processed

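The authors deposited 1 log2 level per probe set and array. Per the submitters' processing notes these come from oligo and RMA, and per the labels 100 ng of total RNA went into each array. No version and no genome build is given in the sources used here. RMA as such corrects background, gives the arrays a common distribution and summarises probes by a robust fit. Scanner files were not analysed here.

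The table has 41345 probe sets; the platform annotation gives 1 symbol for 23521, several for 1814 and none for 16010. Of those with 1 symbol, 23328 matched the RefSeq gene table of GRCm38.p6. Genes above the array median in at least 3 arrays were tested. Differences were tested with limma 3.58.1 in R 4.3.3, using lmFit and eBayes on all 3 groups together, two-sided, with Benjamini-Hochberg adjustment and a threshold of 0.05; the mixture contrast takes the neuron share as known. The script was tested on simulated data. The labels call the arrays biological replicates, and what the numbers stand for is not stated, so p-values measure the spread between these arrays. The number of arrays limits the precision, and dim genes may have understated differences.

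Same-numbered co-culture and precursor arrays deviated together (correlations 0.34, 0.30 and 0.16), which met a rule that every pair be over 0.1. Unlike-numbered arrays of these groups lay between -0.27 and -0.0068, but neuron replicate 3 and precursor replicate 1 reached 0.23. Deviations were taken from the mean of each group, so positive same-numbered values push the unlike-numbered ones down. The negative values therefore add no separate evidence. From the same-numbered values, a pairing by number is possible but not stated. The tests are unpaired except where the replicate block is named. That block took in the neuron arrays too, and no fit paired co-culture and precursors alone. By the same rule the neuron arrays had no partners among the precursors (0.0043, 0.13 and -0.15) nor in the co-culture (-0.0051, 0.27 and 0.17).

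Named were the 10 genes, up to 4 genes of each list with the largest called differences, their family relatives, and the most correlated gene of each. Some list genes beyond those 4 and Dcn and Lum were chosen after their values were seen. The 10 genes and the gene lists were chosen with earlier results of these data known. Alternatives changed the normalization, the filter, the probe set, the variance prior, array weights, the groups fitted, the block, the neuron share and the arrays included. Promoter windows came from RefSeq tables: 8 of the 10 genes had one, and 6 had one at the gene start.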

Additional observations from a re-analysis of the deposited data

How the results depend on the processing

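Of 772 values of the 10 genes over all comparisons and alternatives, 741 kept their direction and side of the threshold, 5 came to pass it, 2 no longer passed and 24 changed sign, of which 0 passed the threshold in either setting. Apoe also passed with array weights, at -0.16 for neurons against precursors (limma adjusted p = 0.0351) and 0.17 for co-culture against neurons (0.0159). The replicate block changed no call of the 10 genes. Arrays centred on the median of the genes tested were added after seeing the data. Slc1a2 and Apoe were not tested with the filter at the 75th percentile. The cause of these changes was not tested.

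For co-culture against precursors, 26 genes were lower as reported, 40 with no filter, 43 with the 75th percentile filter, 87 with array weights, 42 with an intensity trend, 42 with the replicate block, 57 with only the 2 groups compared and 98 after centring on the tested genes, which also left 692 higher in place of 1069. For co-culture against neurons that centring gave 3478 higher and 4925 lower in place of 4643 and 3236, so 41.4% of calls were higher in place of 58.9%. Against the predicted mixture, 47 genes were higher as reported, 19 with no filter, 79 with the 75th percentile filter, 91 with array weights, 73 with an intensity trend, 25 with the replicate block, 566 and 2 with a neuron share lower or higher by 0.1, 9 with a share specific to direction and 9 after centring on the tested genes. Of genes lower than the mixture there were 4 as reported, 0 with cyclic loess, no filter, the direction-specific share or that centring, 1 with the 75th percentile filter, 9 with array weights, 2 with the replicate block, and 12 and 1 with the share lower or higher by 0.1. With the lower share 1 of the 10 genes, Sparcl1, was above the mixture.

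Leaving out 1 array at a time gave, for neurons against precursors, 3 to 3 of the 10 genes higher and 6 to 7 lower, and 3377 to 3584 and 4206 to 4618 of all genes. For co-culture against precursors it gave 1 to 1 higher and 0 to 0 lower of the 10, and 676 to 1112 and 7 to 51 of all genes. For co-culture against neurons it gave 6 to 7 and 2 to 3 of the 10, and 4194 to 4703 and 2857 to 3263 of all genes. Against the mixture it gave 0 to 0 in either direction of the 10, and 9 to 48 and 0 to 2 of all genes.

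Sign changes concerned values near 0. Against the mixture, Nes was at 0.00058 with arrays centred on their median, 0.12 with the higher share, and between 0.00046 and 0.031 without neurons 2 (0.0038), precursors 1, precursors 3 or co-culture 2 (0.018). Fabp7 was at -0.041, -0.014 and -0.036 with the lower share, the direction-specific share and centring on the tested genes, and Gja1 at -0.047, -0.012 and -0.018 with the same. With 1 array left out Gja1 was between -0.018 and 0.085 (-0.00065 without co-culture 1). Slc1a2 was at 0.0020 with the lower share and Apoe at -0.036 after centring on the tested genes. For co-culture against precursors, Vim was at 0.0041 with array weights and between -0.049 and 0.029 with 1 array left out (0.016 without co-culture 2), Aldoc between -0.11 and 0.0020, and Apoe between -0.022 and 0.039 (-0.0030 without co-culture 3). Apoe was at -0.052 after centring on the tested genes, and Slc1a2 at -0.044 after that centring.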
